A study of Mus musculus with 8 samples.

Results

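The nuclear genes of the mitochondrial respiratory chain were followed in RNA from the wound skin of mice. The set took every gene of the deposited table whose symbol begins with Nduf, Sdh, Uqcr, Atp5 or Cox4 to Cox8, and it left out Cox6a2, the form of a complex IV subunit made in heart and skeletal muscle. The rule used gene symbols and no measured value. It found 99 genes of the 18540 in the table. These were 37 subunits of complex I, 4 of complex II, 8 of complex III, 17 of complex IV and 17 of complex V, together with 12 assembly factors (Ndufaf1 to Ndufaf8 and Sdhaf1 to Sdhaf4) and 4 gene copies. Ndufa4 and Ndufa4l2 carry complex I symbols but were placed with complex IV, where the Ndufa4 protein is known to sit.

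The 8 samples were 4 wounds of a control group, which received PBS and carry the numbers 1, 2, 3 and 5, and 4 wounds treated for 15 days with Z1C2Z, which carry the numbers 1, 2, 4 and 5. Z1C2Z is the nanocomposite ZnO2/CeO2@ZIF-8 in its version richer in CeO2 relative to ZnO2, a material made to release oxygen and to remove reactive oxygen species, and it was injected around the wound. The study made 2 full-thickness wounds of 10 mm on the back of each mouse, in db/db mice aged 10 weeks, which lack a working leptin receptor and are diabetic, and in C57BL mice aged 6 weeks. The sources used here do not say which strain gave the sequenced skin, or which samples came from the same mouse, so the p-values measure only the spread between these samples, which may in part be technical.

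The respiratory chain sits in the inner mitochondrial membrane. Complex I takes electrons from NADH and complex II takes them from succinate, complex III passes them to cytochrome c, and complex IV hands them to oxygen. Complexes I, III and IV pump protons while they do so, and complex V, the ATP synthase, makes ATP as the protons flow back. Most subunits come from nuclear genes, several of which have second forms made in muscle, in lung or at low oxygen. For the 13 subunits encoded by mitochondrial DNA, the deposited table held 0 of the symbols looked for, so they were not analysed here. The comparison asks whether the mRNA of the machinery that consumes oxygen differed in wounds given an oxygen-releasing material.

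The libraries held between 28856790 and 38974888 counts on genes, and levels are given as CPM, counts scaled to a common library size by the TMM method. Of 15147 genes tested by edgeR (quasi-likelihood F test, p-values adjusted after Benjamini and Hochberg), 648 were higher and 583 lower in the Z1C2Z group at an adjusted p under 0.05. Marker lists of hair and of muscle moved with the groups. Hair shaft and matrix markers summed to between 719.5 and 4145 CPM in the controls and between 5045 and 19060 CPM in the Z1C2Z samples, and 21 of 23 were called higher. Skeletal muscle markers summed to between 5758 and 10770 CPM in the controls and between 4959 and 5567 CPM in the Z1C2Z samples, and 6 of 25 were called lower. In such bulk tissue, fewer cells of a type and less RNA per cell cannot be told apart.

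All 99 respiratory chain genes passed the filter on low counts, and 0 of them were called in either direction. Among all genes tested, 4.28% were called higher and 3.85% lower. With an unadjusted p under 0.05 the count was also 0 of 99, whereas 28.0% of all genes reached it. DESeq2 likewise called 0 of the 99, with 0 at an unadjusted p under 0.05. For none of the 99 did the values of the 4 Z1C2Z samples lie apart from those of the 4 controls, compared with 17.3% of all genes. The smallest adjusted p was 0.218, for Ndufs8, and the smallest p of the exact two-sided permutation test was 0.0571, for Uqcrc1, where 4 samples against 4 cannot go below 0.0286.

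The estimates were small, and most pointed upward. The log2 fold change was above 0 for 79 of the 99 genes and below 0 for 20, with a median of 0.13, beside a median of 0.01 over all genes tested. The median over the 83 subunits was also 0.13. Its size rested on single samples, since it was 0.04 without Z1C2Z-2, 0.05 without Z1C2Z-4 and 0.07 without control-2, but 0.19 without control-1 and 0.21 without Z1C2Z-1. The 95% interval of the fold change lay inside a 2-fold change in either direction for 95 genes and inside a 1.5-fold change for 72. The 4 genes with wider intervals were Cox8b, Ndufb4b, Ndufb4c and Ndufs6b, which are among the genes of the set with the fewest counts. With 4 samples against 4, a change of any size inside these intervals remains compatible with the data.

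**Figure D1:**
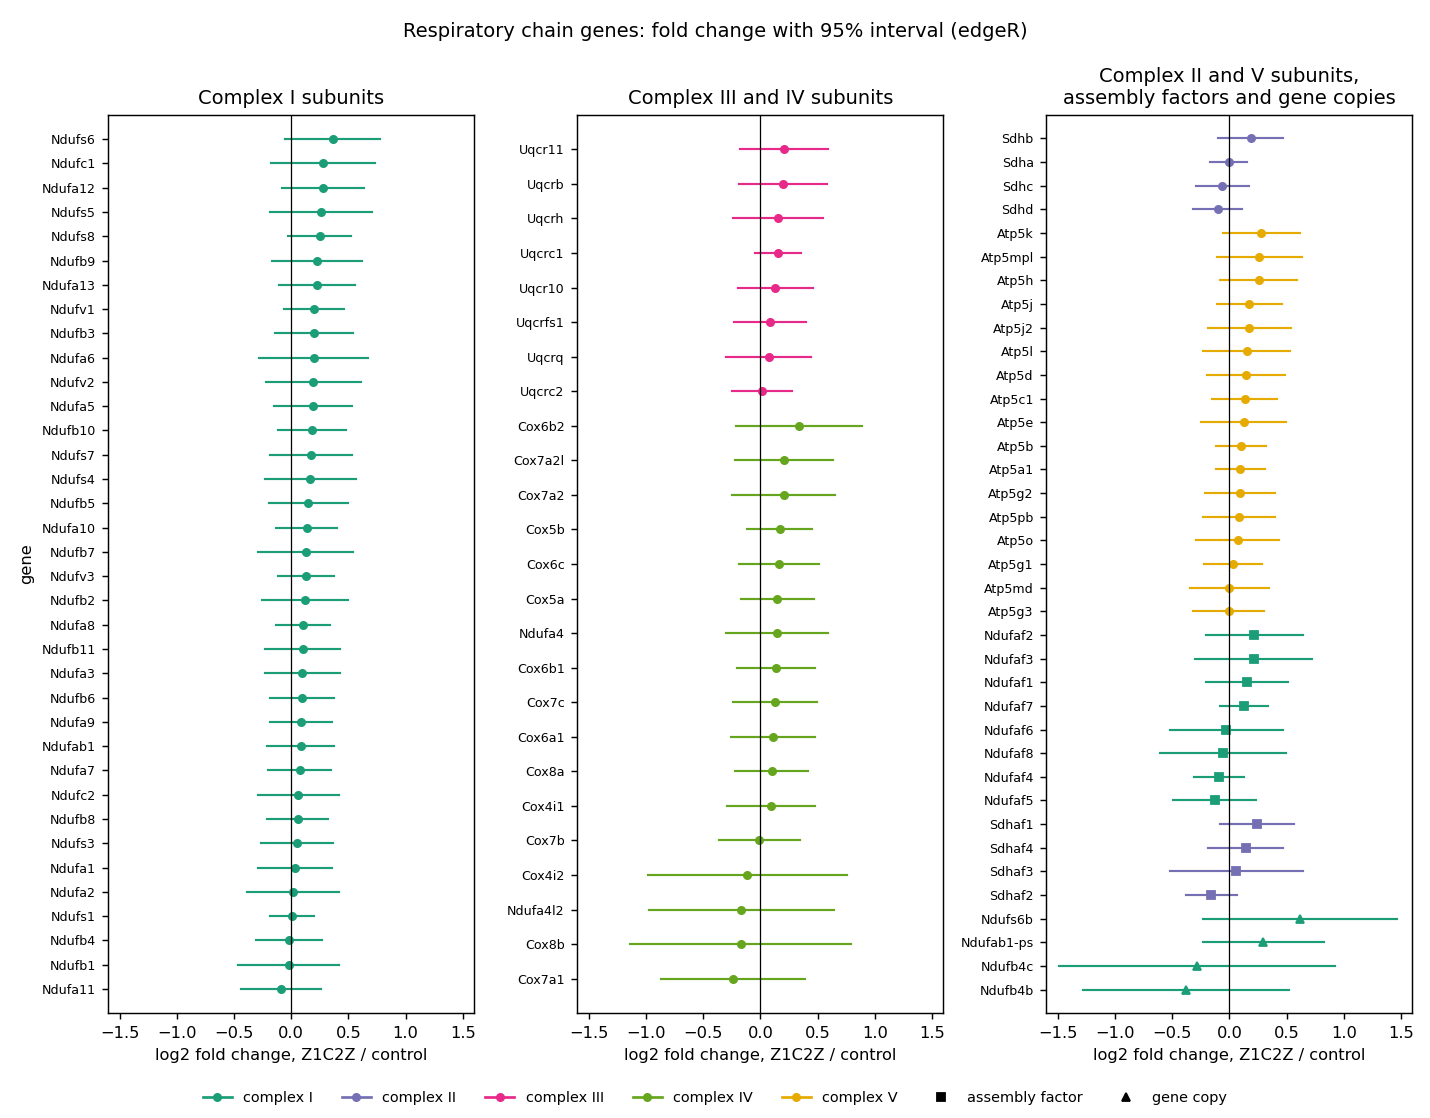
The log2 fold change of Z1C2Z over control (horizontal axis) for 98 of the 99 respiratory chain genes (vertical axis, grouped by complex). Lines are approximate 95% intervals computed from the edgeR test. Circles are subunits, squares assembly factors and triangles gene copies. Every interval shown crosses 0, and most estimates lie above it.

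Complex I is the entry point for electrons from NADH and the largest complex of the chain. Of its 37 subunits 34 had a log2 fold change above 0, and the median was 0.13. Ndufs1, the largest core subunit, which carries iron-sulfur clusters of the electron path, had 117, 101.5, 105 and 99.01 CPM in controls 1, 2, 3 and 5. In the Z1C2Z samples 1, 2, 4 and 5 it had 105, 113, 106 and 99.9 CPM. The groups overlapped completely, and the log2 fold change was 0.00 with a 95% interval from -0.19 to 0.20 (adjusted p = 0.983, edgeR).

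Ndufv1, the flavoprotein that binds NADH, had 70.1, 66.9, 66.4 and 73.9 CPM in the controls (always in this order of samples). In the Z1C2Z samples it had 69.9, 90.2, 90.6 and 67.8 CPM. Z1C2Z-2 and Z1C2Z-4 lay above every control and the other two Z1C2Z samples lay among them. The log2 fold change was 0.20 (interval -0.06 to 0.46, adjusted p = 0.295, edgeR). The same split was present in Ndufs8 and Ndufs6, an iron-sulfur core subunit and an accessory subunit, which were singled out after their values were seen. Ndufs8 had 34.96, 30.4, 28.7 and 32.9 CPM in the controls and 31.3, 43.0, 41.7 and 34.8 CPM in the Z1C2Z samples. Ndufs6 had 37.9, 28.0, 28.4 and 29.7 CPM in the controls and 30.7, 47.8, 49.4 and 31.7 CPM in the Z1C2Z samples, and its log2 fold change of 0.36 was the highest of any subunit (interval -0.05 to 0.78, adjusted p = 0.229, edgeR). The 7 core subunits had a median log2 fold change of 0.17 and the 30 accessory subunits one of 0.12.

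The 8 complex I assembly factors, which build the complex and then leave it, had log2 fold changes between -0.13 and 0.22. The 4 gene copies, Ndufb4b, Ndufb4c, Ndufs6b and Ndufab1-ps, are near-identical to Ndufb4, Ndufs6 and Ndufab1, so their reads may have been divided among each other by the counting step, and their values are uncertain. Ndufs6b had the largest positive estimate of the set. Its level was 0.853, 1.06, 0.661 and 1.13 CPM in the controls and 0.649, 2.07, 1.78 and 1.16 CPM in the Z1C2Z samples, a log2 fold change of 0.62 with an interval from -0.23 to 1.46. Ndufb4b had the largest negative estimate. It had 2.13, 0.666, 0.771 and 1.13 CPM in the controls and 0.677, 1.19, 0.929 and 0.776 CPM in the Z1C2Z samples, and control-1 was far the highest. The log2 fold change of -0.38 (interval -1.28 to 0.52) became 0.06 when control-1 was left out.

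Complex II, succinate dehydrogenase, is shared by the chain and the TCA cycle and is encoded by nuclear genes alone. It was the steadiest of the complexes. Sdha, the flavoprotein subunit, had 179, 189, 179 and 178 CPM in the controls and 176, 184, 187 and 174 CPM in the Z1C2Z samples. All 8 values lay close together, and the log2 fold change was -0.01 with an interval from -0.17 to 0.155 (adjusted p = 0.954, edgeR). Sdhb, the iron-sulfur subunit, had 73.4, 60.3, 64.5 and 63.4 CPM in the controls and 61.9, 88.7, 80.1 and 66.8 CPM in the Z1C2Z samples, with Z1C2Z-2 and Z1C2Z-4 highest (log2 fold change 0.19, adjusted p = 0.365, edgeR). The membrane anchors Sdhc and Sdhd had log2 fold changes of -0.06 and -0.10. Of the 4 assembly factors, Sdhaf1, which helps to insert iron-sulfur clusters into Sdhb, had the highest estimate, 0.24 (adjusted p = 0.302, edgeR). Sdhaf2, which is needed to attach FAD to Sdha, had the lowest, -0.16 (adjusted p = 0.325, edgeR).

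Complex III moves electrons from ubiquinol to cytochrome c. All 8 of its subunits in the set had a log2 fold change above 0, from 0.01 to 0.21, with a median of 0.14. The subunit cytochrome c1, encoded by Cyc1, is not taken in by the symbol rule. Cyc1 had a log2 fold change of 0.07 (adjusted p = 0.742, edgeR). Uqcrc1, one of the core proteins that face the matrix, had 104, 115, 110.5 and 110.0 CPM in the controls and 111, 125, 137 and 117 CPM in the Z1C2Z samples. In 3 of the Z1C2Z samples the values were the highest of the 8, and the fourth lay below control-2. The log2 fold change was 0.16 (interval -0.04 to 0.35, adjusted p = 0.282, edgeR). The partner core protein Uqcrc2 had 152 ± 18.6 CPM in the controls and 154 ± 17.3 CPM in the Z1C2Z group (log2 fold change 0.01). Uqcrfs1, the Rieske iron-sulfur protein, had 87.4 ± 8.25 CPM and 92.7 ± 17.5 CPM (log2 fold change 0.08), and Uqcr11, a small subunit, had 20.8 ± 3.35 CPM and 23.9 ± 5.06 CPM (log2 fold change 0.21, SD, n = 4 for each of these values).

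Complex IV, cytochrome c oxidase, is where oxygen is consumed. Of its 17 subunits 12 had a log2 fold change above 0 and 5 below, with a median of 0.13. Cox4i1, the general form of the largest nuclear subunit, had 234, 177, 202 and 221 CPM in the controls and 168, 264, 271 and 187 CPM in the Z1C2Z samples. The lowest and the highest value both belonged to the Z1C2Z group, and the log2 fold change was 0.09 (interval -0.29 to 0.48, adjusted p = 0.752, edgeR). Cox5a, one of the early subunits of assembly, had 78.3 ± 9.60 CPM in the controls and 86.8 ± 15.4 CPM in the Z1C2Z group (log2 fold change 0.15), and Cox5b had 52.6 ± 4.91 and 59.2 ± 9.44 CPM (log2 fold change 0.17, SD, n = 4 each). Cox7a2l, which links complex III and complex IV in supercomplexes, had 180, 120, 146 and 164 CPM in the controls and 138, 207, 222 and 140 CPM in the Z1C2Z samples (log2 fold change 0.21, adjusted p = 0.502, edgeR). Cox6b2, a form best known from testis, was near the detection limit at 1.43 ± 0.280 and 1.80 ± 0.382 CPM (log2 fold change 0.34, interval -0.21 to 0.89).

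**Figure D2:**
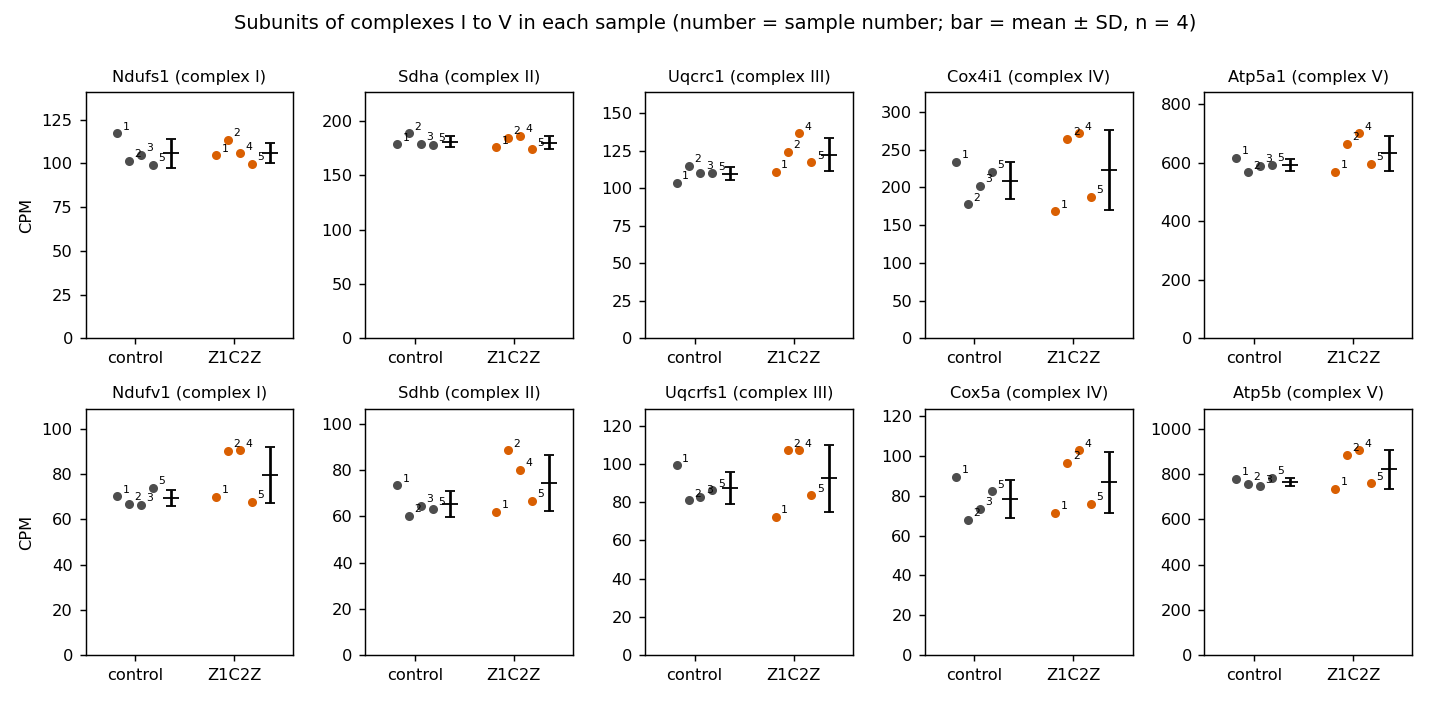
CPM (vertical axis, from 0) of 2 defining subunits of each complex in the 4 control samples (grey) and the 4 Z1C2Z samples (orange), with the sample number beside each point and bars for the mean ± SD. In all 10 panels the groups overlap, and the points of Z1C2Z-2 and Z1C2Z-4 lie above those of Z1C2Z-1 and Z1C2Z-5.

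Several complex IV subunits have a general form and a second form restricted to a tissue or raised at low oxygen, so the balance within a pair was compared inside each library. Cox7a1 and Cox8b are the forms of heart, skeletal muscle and brown fat, beside Cox7a2 and Cox8a in other tissues. Cox4i2 is the form of lung and of hypoxic cells, beside Cox4i1, and Ndufa4l2 is a target of the hypoxia-inducible factor, beside Ndufa4. The share of the second form was tested by exact permutation (two-sided, 70 arrangements), adjusted over the 4 pairs, and none of the pairs passed.

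Cox7a1 made up 2.87, 2.60, 2.45 and 3.10% of the counts of its pair in the controls and 3.23, 1.72, 1.74 and 1.80% in the Z1C2Z samples. Z1C2Z-1 had the highest share of all 8, and the other Z1C2Z samples lay below every control. The mean was 2.75% ± 0.287 in the controls and 2.12% ± 0.740 in the Z1C2Z group (SD, n = 4 each), with an exact p of 0.143 and an adjusted p of 0.572 (permutation test). Without Z1C2Z-1 the difference grew from -0.633 to -1.003 percentage points. Cox7a1 alone had a log2 fold change of -0.24, the lowest of any subunit (interval -0.87 to 0.39, adjusted p = 0.612, edgeR).

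Cox8b made up 15.9, 4.30, 5.38 and 5.51% of its pair in the controls and 8.26, 6.00, 5.504 and 7.15% in the Z1C2Z samples. Control-1 stood far above the other 7 samples, and in it the skeletal muscle markers also had their highest sum, 10770 CPM. The difference between the group means was -1.04 percentage points and changed sign to 1.66 without control-1 (exact permutation p = 0.971 with all samples). The part of muscle tissue in this value was not tested. Cox6a2, which the rule left out as a muscle form, had 13.0, 7.13, 6.03 and 8.59 CPM in the controls and 6.20, 5.42, 4.47 and 4.80 CPM in the Z1C2Z samples, with an adjusted p of 0.0875 (edgeR).

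The forms known from low oxygen did not separate the groups. Cox4i2 was 0.858, 1.01, 1.12 and 1.91% of its pair in the controls and 0.997, 1.34, 1.09 and 0.720% in the Z1C2Z samples (exact permutation p = 0.571). Control-5 was highest, and without it the difference changed from -0.188 to 0.0414 percentage points. Ndufa4l2 was abundant, at 72.2, 33.9, 33.1 and 94.2 CPM in the controls and 53.5, 33.2, 68.9 and 52.1 CPM in the Z1C2Z samples. As a share of its pair it was 32.8, 25.5, 22.4 and 49.1% in the controls and 34.98, 16.6, 32.8 and 33.9% in the Z1C2Z samples (exact permutation p = 0.771). Control-1 and control-5, which had the most Ndufa4l2 among the controls, were also the samples with the highest sum over 17 hypoxia target genes, 2297 and 2833 CPM, beside 1474 to 1655 CPM in the other 6 samples.

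**Figure D3:**
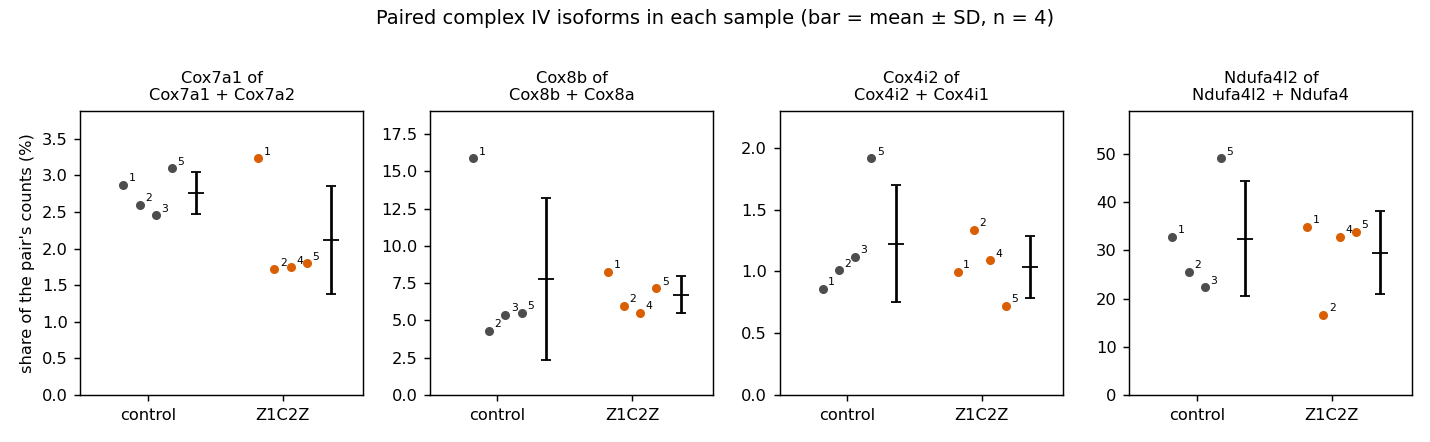
The share of the second form in the counts of its isoform pair (vertical axes, %, from 0) in each control sample (grey) and Z1C2Z sample (orange), with sample numbers and bars for the mean ± SD. The groups overlap in all 4 pairs, with control-1 at 15.9% for Cox8b and control-5 at 49.1% for Ndufa4l2.

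Complex V, the ATP synthase, had the highest summed level of the complexes. Its 17 subunits had log2 fold changes between -0.01 and 0.28, with a median of 0.12, and 15 were above 0. Atp5b, the catalytic beta subunit, had 778, 758, 746 and 784 CPM in the controls and 736, 885, 906 and 759 CPM in the Z1C2Z samples. Atp5a1, the alpha subunit, had 617, 568, 589 and 593 CPM in the controls and 569, 665, 701 and 596 CPM in the Z1C2Z samples. Both were highest in Z1C2Z-2 and Z1C2Z-4, and both had a log2 fold change of 0.10 with an interval from -0.12 to 0.32 for Atp5b and from -0.12 to 0.31 for Atp5a1 (adjusted p = 0.528 and 0.535, edgeR).

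Subunit c, which forms the rotating ring of the ATP synthase, is encoded by Atp5g1, Atp5g2 and Atp5g3. These genes had 27.0 ± 2.42, 50.8 ± 7.97 and 152 ± 18.8 CPM in the controls and 27.5 ± 3.37, 54.1 ± 7.09 and 151 ± 24.7 CPM in the Z1C2Z group (SD, n = 4 each). Their log2 fold changes were 0.03, 0.09 and -0.01. Atp5k, a subunit at the dimer interface, had the highest estimate of the complex, 0.28 (interval -0.06 to 0.62, adjusted p = 0.258, edgeR). Atpif1, the inhibitor of the ATP synthase, which the symbol rule does not take in, had 84.7, 58.5, 67.2 and 70.7 CPM in the controls and 67.8, 103, 99.1 and 72.0 CPM in the Z1C2Z samples (log2 fold change 0.28, adjusted p = 0.302, edgeR).

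Levels of different genes were compared per kilobase of transcript, using the median transcript length of each gene. On this scale Atp5b (414 CPM per kilobase, mean of 8 samples) and the complex III hinge protein Uqcrh (412) were highest, followed by Cox4i1 (286), Cox6b1 (281) and Ndufa4 (263). Sdha and Sdhb stood almost level, at 62.3 and 61.2 CPM per kilobase, as did Uqcrc1 (70.3), Uqcrc2 (80.6) and Uqcrfs1 (66.1). The second forms of complex IV were far lower. Cox4i2 had 3.43, Cox6b2 3.71, Cox7a1 4.52 and Cox8b 8.62 CPM per kilobase, whereas Ndufa4l2 reached 59.0. Among the subunit c genes Atp5g3 had 211, Atp5g2 89.5 and Atp5g1 10.2 CPM per kilobase. The length used was 718.5 bases for Atp5g3, 586 for Atp5g2 and 2675.5 for Atp5g1. It is a median over annotated transcripts, whether expressed here or not, so the low value of Atp5g1 depends on it.

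Across the 8 samples the respiratory chain genes moved together, and the spread inside each group was larger than the difference between the groups. The subunits of complex I summed to 1982, 1507, 1603 and 1724 CPM in the controls and to 1582, 2151, 2072 and 1637 CPM in the Z1C2Z samples. Complex IV summed to 1566, 1103, 1214 and 1383 CPM in the controls and to 1170, 1694, 1647 and 1214 CPM in the Z1C2Z samples. In both, Z1C2Z-2 and Z1C2Z-4 were highest and control-1 came next. The sum over complex II varied least, from 354 to 411 CPM over all 8 samples. Group means of the sums differed by a ratio of 1.09 for complexes I, III and IV, 1.08 for complex V and 1.00 for complex II.

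The order of the samples was nearly the same from gene to gene. Control-1 was the highest control for 75 of the 99 genes, and control-2 the lowest for 73. Among the treated samples Z1C2Z-2 was highest for 62 and Z1C2Z-4 for 34, while Z1C2Z-1 was lowest for 67 and Z1C2Z-5 for 30. As a median over the 99 genes, log2 CPM deviated from the mean over all samples by 0.18, -0.23, -0.13 and -0.02 in the controls and by -0.17, 0.29, 0.23 and -0.12 in the Z1C2Z samples. Complex II shifted least, with medians between -0.16 and 0.12.

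**Figure D4:**
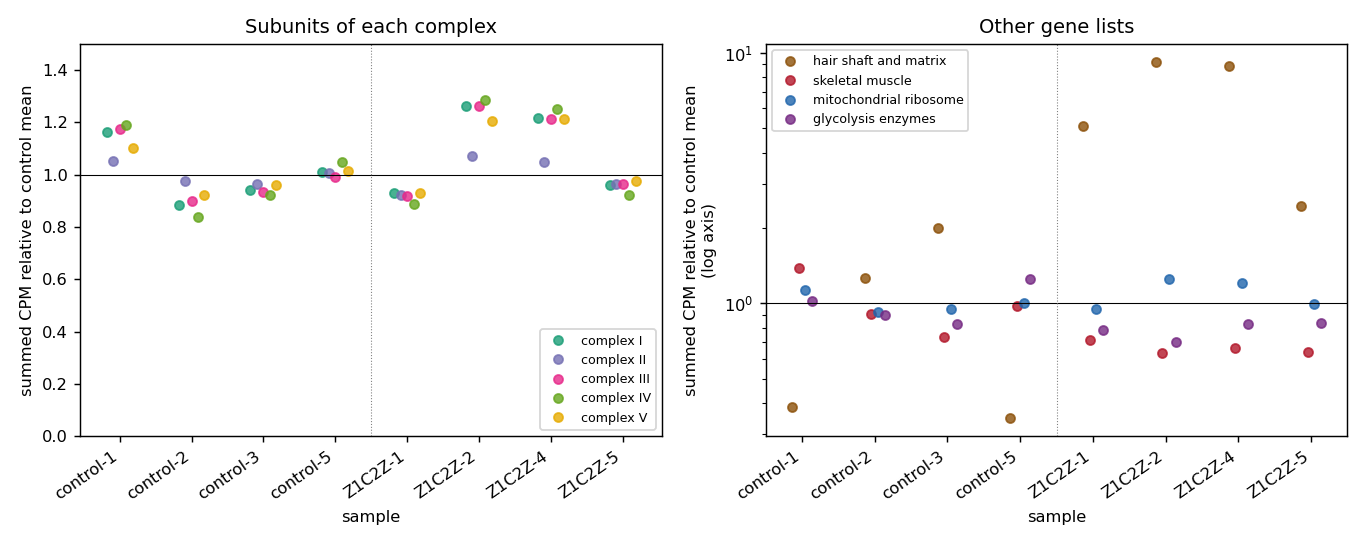
Left, the summed CPM of the subunits of each complex in each sample, divided by the control mean (vertical axis, from 0). Right, the same ratio on a log axis for the hair, skeletal muscle, mitochondrial ribosome and glycolysis lists. Z1C2Z-2 and Z1C2Z-4 have the highest sums of complexes I, III, IV and V and of the hair list, while in complex II control-1 exceeds Z1C2Z-4, and Z1C2Z-1, with hair markers at 10530 CPM, lies below the control mean for every complex.

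The same shift occurred outside the respiratory chain. The 78 genes of the mitochondrial ribosome deviated by a median of 0.26 in Z1C2Z-2 and -0.18 in control-2, and the 100 tested genes of the cytosolic ribosome by 0.32 and -0.31. Part of it went with transcript length. The respiratory chain genes are short, with a median transcript of 745 bases over the 97 that have a length, against 2651 bases over all tested genes. Among other genes with transcripts of at most 750 bases, 569 in number and of any function, the medians were 0.11, -0.22, -0.14 and 0.03 in the controls and -0.13, 0.25, 0.21 and -0.09 in the Z1C2Z samples. Among 6269 other genes with transcripts over 3000 bases the signs were opposite, with 0.10 in control-2 and -0.11 in Z1C2Z-2.

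In the samples that shifted most, the medians of the respiratory chain genes lay further from 0 than those of other genes of their length. Up to 750 bases, their median was 0.33 in Z1C2Z-2 and -0.27 in control-2, beside 0.25 and -0.22 for the other genes. Between 750 and 1500 bases it was 0.29 in Z1C2Z-2 and -0.22 in control-2, beside 0.17 and -0.13. Between 1500 and 3000 bases it was 0.17 in Z1C2Z-2 and 0.19 in Z1C2Z-4, beside 0.05 in each. These differences are medians and were not tested.

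The fold change followed length in the same way. Its median was 0.14 for the 50 respiratory chain genes of at most 750 bases and 0.12 for other genes of that length. It was 0.10 for the 27 genes between 750 and 1500 bases, where other genes had 0.07, and 0.09 for the 18 between 1500 and 3000 bases, where other genes had 0.02. Of the rest, 2 were longer and 2 had no length. With the length trend of each sample taken out, the median over the 99 genes was 0.05 and that over all genes 0.01, and 0 of the 99 were called. Then 3 of them, Ndufs6, Ndufs8 and Sdhd, had an unadjusted p under 0.05 in edgeR. Their directions differ, since without the offset their log2 fold changes were 0.36, 0.25 and -0.10. What made length matter in these libraries was not tested.

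**Figure D5:**
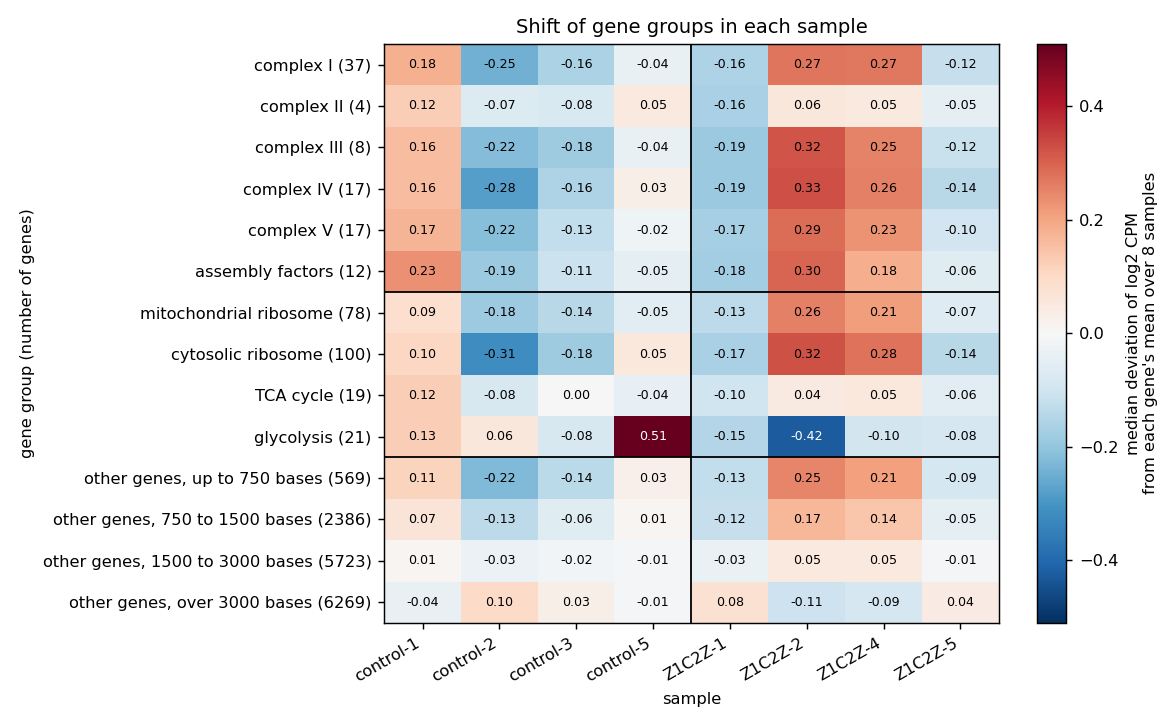
The median deviation of log2 CPM from each gene's mean over the 8 samples (colour and printed value) for gene groups (vertical axis, number of genes in brackets) in each sample (horizontal axis). Complexes I, III, IV and V, the assembly factors, both ribosomes and other short genes share 1 pattern, with 0.21 to 0.33 in Z1C2Z-2 and Z1C2Z-4 except for the assembly factors in Z1C2Z-4 (0.18), and genes over 3000 bases have the opposite sign in every sample but control-5.

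Because these genes move together between samples, their promoters were read for 4 motifs of factors known to control them. The factors were NRF-1 (GCGCATGC), the ETS family, to which NRF-2 belongs (CCGGAAG), YY1 (AAGATGGC) and the estrogen-related receptors (TCAAGGTCA). Both strands were searched from 250 bases before to 50 bases after the start of each RefSeq gene (GRCm38.p6). Of the 99 genes 81 had at least 1 promoter in that table, 86 promoters in all. The NRF-1 letters stood in 12 of the 86 and in 2.71% of all 32851 promoters. The ETS letters stood in 22 of the 86 and in 8.86% of all, the YY1 letters in 11 and in 2.75% of all, and those of the estrogen-related receptors in 2 and in 0.423% of all. The NRF-1 core reads the same way on both strands when it is extended, so a pair of overlapping matches can mark 1 element.

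The 250 bases before the start are shown for 5 genes, on the coding strand of each and with the motif letters in capitals. Cox6a1 (chr5:115348959-115349208, minus strand) holds an extended NRF-1 element and an ETS match, and Sdhb (chr4:140961021-140961270, plus strand) an NRF-1 match, with an ETS match after the start that is not shown. Atp5j (chr16:84834977-84835226, minus strand) holds YY1 and ETS matches, and Atp5g3 (chr2:73911327-73911576, minus strand) that of the estrogen-related receptors. Another promoter of Atp5j (chr16:84835626-84835875, minus strand), not shown, has 0 matches in its 250 bases. Cox8b (chr7:140900447-140900696, minus strand), the muscle form, holds none of the 4.
Cox6a1: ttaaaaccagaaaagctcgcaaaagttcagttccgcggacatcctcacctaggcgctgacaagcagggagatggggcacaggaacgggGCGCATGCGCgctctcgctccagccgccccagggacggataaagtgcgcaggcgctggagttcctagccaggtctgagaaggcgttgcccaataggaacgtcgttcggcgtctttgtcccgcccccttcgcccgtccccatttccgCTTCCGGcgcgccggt
Sdhb: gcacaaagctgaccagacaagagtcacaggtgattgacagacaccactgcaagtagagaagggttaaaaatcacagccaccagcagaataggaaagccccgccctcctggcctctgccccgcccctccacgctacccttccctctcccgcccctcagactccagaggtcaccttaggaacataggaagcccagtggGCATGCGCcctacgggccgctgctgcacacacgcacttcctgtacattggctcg
Atp5j: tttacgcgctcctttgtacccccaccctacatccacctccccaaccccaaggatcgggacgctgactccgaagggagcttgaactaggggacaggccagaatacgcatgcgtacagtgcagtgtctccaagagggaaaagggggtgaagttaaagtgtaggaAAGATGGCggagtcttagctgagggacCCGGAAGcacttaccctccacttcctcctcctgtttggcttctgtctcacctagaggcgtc
Atp5g3: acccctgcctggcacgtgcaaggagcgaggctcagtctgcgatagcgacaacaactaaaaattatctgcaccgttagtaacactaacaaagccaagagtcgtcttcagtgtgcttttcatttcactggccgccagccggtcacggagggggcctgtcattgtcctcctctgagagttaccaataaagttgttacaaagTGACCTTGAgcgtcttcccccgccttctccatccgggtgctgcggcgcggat
Cox8b: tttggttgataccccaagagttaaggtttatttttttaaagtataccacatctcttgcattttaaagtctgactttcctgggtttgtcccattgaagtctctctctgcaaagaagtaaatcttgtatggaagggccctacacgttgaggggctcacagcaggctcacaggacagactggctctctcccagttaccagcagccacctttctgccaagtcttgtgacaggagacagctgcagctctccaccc
The median log2 fold change was 0.13 for the 12 genes with the NRF-1 letters, 0.13 for the 22 with the ETS letters and 0.17 for the 11 with the YY1 letters, beside 0.13 for the whole set. Of the genes shown, Cox6a1 had a log2 fold change of 0.11 (interval -0.25 to 0.48), Sdhb 0.19, Atp5j 0.17 and Atp5g3 -0.01. A match is a run of letters and says nothing on whether the factor binds there.

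The neighbouring pathways were read from lists of genes. The 18 tested regulators of mitochondrial biogenesis included 0 called genes, with 3 at an unadjusted p under 0.05 (edgeR), beside 28.0% of all genes tested. Nrf1, the gene of NRF-1, had 25.9, 26.3, 25.3 and 27.6 CPM in the controls and 26.1, 26.5, 24.5 and 26.3 CPM in the Z1C2Z samples. Ppargc1a, the coactivator that drives biogenesis, had 3.13, 3.08, 2.70 and 1.80 CPM in the controls and 3.69, 3.83, 4.02 and 2.97 CPM in the Z1C2Z samples (log2 fold change 0.44, adjusted p = 0.221, edgeR). Esrra had a log2 fold change of 0.22 and Tfam, which packages mitochondrial DNA, 0.18, and neither passed.

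The TCA cycle feeds the chain, and its list of 19 genes also takes in enzymes that supply the cycle, such as Pdhb and Pcx. They had a median log2 fold change of -0.06 and 0 calls, with 3 at an unadjusted p under 0.05 (edgeR). The 78 genes of the mitochondrial ribosome, which translates the subunits encoded by mitochondrial DNA, had a median of 0.16 and 0 calls, with 7 at an unadjusted p under 0.05. Of all genes tested, 28.0% had an unadjusted p under 0.05 (edgeR). Of 42 other assembly factors and electron carriers, 1 was called higher and 2 lower, beside 4.28% and 3.85% of all genes tested. For 7 of the 42 the groups did not overlap, beside 17.3% of all genes. Acad9, a complex I assembly factor, rose from 131, 117, 117 and 106 CPM in the controls to 144, 165, 184 and 149 CPM in the Z1C2Z samples, without overlap (log2 fold change 0.45, adjusted p = 0.0400, edgeR). Ttc19, which keeps complex III active, fell from 27.8, 23.3, 24.4 and 24.7 CPM to 17.6, 16.2, 16.9 and 19.1 CPM (log2 fold change -0.52, adjusted p = 0.0300, edgeR). Pdss1, which makes the side chain of ubiquinone, fell from between 37.8 and 46.5 CPM to between 20.1 and 34.1 CPM (log2 fold change -0.62, adjusted p = 0.0461, edgeR). Cycs, which encodes cytochrome c, had a log2 fold change of -0.05. The calls of Acad9, Ttc19 and Pdss1 were lost without control-5 and without any of the Z1C2Z samples except Z1C2Z-5, since 0 genes of the whole table were then called.

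The genes of a list for glycolysis, which makes ATP without oxygen, had lower estimates. The list also holds Slc16a3, a transporter gene, whose log2 fold change of -1.55 was the lowest in it. Its 21 genes had a median log2 fold change of -0.38, and 2 of them were called lower, beside 3.85% of all genes tested. At an unadjusted p under 0.05 there were 14 of them (edgeR), beside 28.0% of all genes. Hk2, the hexokinase of muscle and of growing cells, fell from 116, 103, 91.2 and 140 CPM in the controls to 65.3, 43.1, 60.7 and 76.5 CPM in the Z1C2Z samples (log2 fold change -0.87, adjusted p = 0.0336, edgeR), and Gapdh fell with a log2 fold change of -0.58 (adjusted p = 0.0456, edgeR), calls that were lost in the same fits. Among 17 hypoxia targets the median was -0.23, with 15 below 0 and 2 above. Of these targets 1 was called lower, P4ha2, a collagen prolyl hydroxylase, beside 3.85% of all genes tested. This call was lost in the same fits. An unadjusted p under 0.05 was reached by 8 of the 17 (edgeR), beside 28.0% of all genes. Whether the chain and glycolysis differ in their response was not tested.

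The groups also differ in hair and muscle markers, so the comparison was repeated with each marker score as a covariate. With the skeletal muscle score in the fit the median log2 fold change of the 99 genes was 0.18, and with the hair score, added after the data were seen, it was 0.05. In both fits 0 of the 99 were called, but these fits also left 0 genes called higher and at most 1 lower among all 15147, so they say little about single genes.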

How the data were processed

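Wound skin from 4 control and 4 Z1C2Z samples was sequenced after rRNA removal and random-primed cDNA synthesis with dUTP, per the labels, which name Trizol where the methods name an extraction kit. What the authors deposited is a table of raw counts on genes, without normalization. The aligner, counter, genome build and strand setting are not given in the sources used here, so reads shared by gene copies or overlapping genes cannot be separated. The table held 0 unused sample columns. Groups came from the sample titles, con and shiyan, which do not name the material. The sequencing methods of the study call it ZCZ, without its ratio.

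Counts were tested in R 4.3.3 with edgeR 4.0.16 (filterByExpr, TMM, quasi-likelihood test without covariates, Benjamini-Hochberg over 15147 genes), tested first on simulated data. Log2 CPM used a prior count of 2. Intervals cover the spread between samples. Transcript lengths were medians over GENCODE transcripts.

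The members, gene lists and tests were chosen with earlier results of these data known. Fixed members of each complex and the largest rise and fall per complex are named, except 1 gene that is not reported here. Ndufs6, Ndufs8, Sdhc, Sdhd, Uqcrh, Cox6a1, Cox6b1 and Atp5j, the named biogenesis regulators, Cycs, the cytosolic ribosome, length groups and motifs were added after values were seen. Alternatives were DESeq2 1.42.0, RLE size factors, other filters, a replicate block, muscle and hair scores, a length offset (lowess span 0.3) and each sample left out.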

Additional observations from a re-analysis of the deposited data

Results flagged for a closer look

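In 78 groups of 4 values (the named genes, the isoform shares and the summed complexes, in each group of samples), 5 had 1 sample farther from the rest than Dixon's critical value allows for the gap over the range. Chance gives about 1 in 20, so 5 in 78 is near what chance gives. Cox7a2 was at 104.6 CPM in control-1, beside 61.4 to 68.7 CPM in the other controls. Sdha was at 188.7 CPM in control-2, beside 178 to 179 CPM, a small difference in a very even group. The share of Cox8b in its pair was 15.86% in control-1, beside 4.30 to 5.51% in the other controls. The share of Cox7a1 was 3.23% in Z1C2Z-1, beside 1.72 to 1.80% in the other Z1C2Z samples. The share of Ndufa4l2 was 16.64% in Z1C2Z-2, beside 32.8 to 34.98% in the others.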

How the results depend on the processing

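No respiratory chain gene was called higher or lower in any of the 16 other fits or with a fold threshold added, and in the test as reported 0 reached an unadjusted p under 0.05. The smallest adjusted p of any of the genes over the fits was 0.114. At an unadjusted p under 0.05 there were 5 genes without control-1, 7 without Z1C2Z-1, 3 without Z1C2Z-5 and 3 with the length offset. The median log2 fold change stayed above 0 in all of them. It was 0.12 with DESeq2 and with RLE size factors, and lowest with the replicate block, at 0.02. With 1 sample left out it lay between 0.04 (without Z1C2Z-2) and 0.21 (without Z1C2Z-1).

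Of 30 named genes 9 kept their sign in all 16 fits. None of the sign changes below is of a called gene, and their cause was not tested. With the hair score as covariate the log2 fold change was -0.0201 for Atp5b, -0.10 for Cox4i1, -0.0637 for Cox6b2, 0.19 for Cox7a1, -0.0649 for Cox8a, 1.05 for Cox8b, -0.12 for Ndufa4, 1.04 for Ndufa4l2, 0.33 for Ndufb4b, -0.0241 for Ndufs1, -0.0025 for Ndufv1, -0.0281 for Sdhaf1, 0.038 for Sdhaf2, -0.0046 for Uqcrc1, -0.0695 for Uqcrc2 and -0.037 for Uqcrfs1. With the skeletal muscle score it was -0.0699 for Atp5g1, 0.0536 for Atp5g3, -0.0695 for Cox6b2, 0.55 for Cox7a1, -0.0529 for Cox8a, 1.27 for Cox8b, 0.49 for Ndufa4l2, 0.50 for Ndufb4b and -0.0491 for Sdhaf1. Ndufs1 was at -0.0054 with DESeq2 and -0.0048 with RLE size factors. The length offset gave -0.0056 for Ndufs1 and -0.0159 for Uqcrc2. With each sample left out in turn, the lowest and highest values were -0.0336 and 0.12 for Atp5g1, -0.0926 and 0.0839 for Atp5g3, -0.0164 and 0.22 for Cox4i1, -0.37 and 0.24 for Cox4i2, -0.42 and 0.46 for Cox8b, -0.0054 and 0.29 for Ndufa4, -0.36 and 0.17 for Ndufa4l2, -0.57 and 0.0615 for Ndufb4b, -0.0284 and 0.0518 for Ndufs1, -0.0273 and 0.0142 for Sdha and -0.0546 and 0.0929 for Uqcrc2. The difference in isoform share lay between -2.19 and 1.66 percentage points for Cox8b, -0.311 and 0.0414 for Cox4i2, and -6.23 and 2.68 for Ndufa4l2, where it was 2.68 without control-5 and 1.44 without Z1C2Z-2.

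The sample numbers 1, 2 and 5 occur in both groups. Within these numbers, departures from the group mean correlated across genes at -0.101, -0.0623 and 0.323. Pairs with different numbers ranged from -0.409 to 0.387. These values cannot tell whether samples with the same number come from the same mouse. With the replicate block, in which control-3 and Z1C2Z-4 carry no information on the comparison, 0 of the 99 genes were called, 60 had a log2 fold change above 0 and the median was 0.02, with -0.0712 for Atp5g1, -0.0139 for Atp5g2, -0.0491 for Cox4i1, -0.0021 for Uqcrc2 and -0.0317 for Uqcrfs1. Among all genes the block gave 301 higher and 253 lower, against 648 and 583 without it.

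With 4 samples a group, differences inside the 95% intervals remain compatible with the data, and the counts of the gene copies were as low as 6 in a sample. Among all genes DESeq2 called 1243 higher and 1513 lower, and leaving out control-2 left 25 higher and 98 lower. Leaving out control-5, or any of the Z1C2Z samples but Z1C2Z-5, left 0 of all genes called, as did the muscle score as covariate, so a count of 0 there says nothing on the respiratory chain.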

Other observations

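Other cell types that differ in their content of mitochondria were read from their marker lists. Among all genes tested 4.28% were called higher and 3.85% lower, and 28.0% had an unadjusted p under 0.05 (edgeR). Of 5 tested brown adipocyte markers 0 were called, with a sum of 165 to 258 CPM in the controls and 146 to 268 CPM in the Z1C2Z samples. Of 12 adipocyte markers 0 were called and 6 had an unadjusted p under 0.05, with a median log2 fold change of -0.34 (edgeR). Of 11 myeloid markers 0 were called and 4 had an unadjusted p under 0.05, and their sum was 3124 to 4163 CPM in the controls and 1553 to 3054 CPM in the Z1C2Z samples. Of 8 fibroblast and matrix markers Dcn and Lum were called lower. Of 5 erythroid markers Hbb-bt and Alas2, the first enzyme of heme synthesis in red cells, were called lower. Of 13 markers of the epidermis between the follicles Krt2 was called higher, and of 7 endothelial markers 0 were called, with 5 at an unadjusted p under 0.05.

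The deposited KEGG annotation places further genes in oxidative phosphorylation that are not among the 99, and 31 of them were tested. Many of these carry the prefix Atp6, such as Atp6v1a, and belong to the vacuolar proton pump rather than to the respiratory chain. The list is therefore no second measure of the chain. They had a median log2 fold change of 0.02 and 0 calls, with 5 at an unadjusted p under 0.05. Of all genes tested, 28.0% had such a p (edgeR).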
